A study of Mus musculus with 6 samples.

Results

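The epithelium-only intergenic regions are stretches between protein-coding genes where open chromatin was called in every palatal epithelium library and in no palatal mesenchyme library. Peaks from the 6 libraries were joined into 707876 regions wherever they shared 1 bp or more, and a region was taken when all 3 epithelium libraries and none of the 3 mesenchyme libraries had a peak in it, when it overlapped no start of a protein-coding transcript, and when its midpoint lay outside all protein-coding gene bodies. This gave 5451 regions, which were 3.4% of the 160172 intergenic regions found in at least 2 libraries, while the opposite pattern, mesenchyme-only, held 3583 regions, or 2.24%. The members were chosen on the presence of peaks, so their presence in epithelium, their absence from mesenchyme and their number are a description and carry no test.

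The assay was ATAC-seq, in which a transposase cuts accessible DNA, and the tissue came from C57BL/6 mouse embryos at E14.5. The epithelium libraries came from the sheet peeled off the palatal shelves after trypsin, which holds basal cells and periderm together, and the mesenchyme libraries came from the shelf tissue that was left. No transgene, mutation or drug was used in either tissue. Embryos were pooled within a library, the sources disagree on how many, and nothing in the labels ties an epithelium library to a mesenchyme library of the same number. P-values below therefore take these libraries as the units compared, and the spread between them may in part be technical.

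Most enhancers, the DNA elements that raise transcription of a gene at a distance, lie away from the promoter, and many are open in only some cell types. Those between genes can act across long stretches of DNA that hold no gene at all, and the nearest start is a customary but imperfect guide to the target. In surface epithelium, enhancers are known to be bound by p63, the master regulator of stratified epithelium, together with factors of the GRHL, TFAP2, KLF, TEAD and AP-1 families. The periderm is the flat outermost layer that covers the basal cells and is shed or displaced when the shelves fuse.

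To show what such regions look like, 6 sequences of 200 bases follow, one from each of 6 members that lay near a gene of the lists described below and held a match to a motif ascribed to epithelium. They were read from the reference mouse assembly (RefSeq, GRCm38.p6, plus strand, 5′ to 3′), and each is centred on the stretch shared by the peaks of the 3 epithelium libraries. Capitals mark the matches to motifs ascribed to epithelium alone, and matches to the other motifs counted below stay in lower case. The named gene is the list gene whose start was nearest.
Krt5, chr15:101722048-101722247: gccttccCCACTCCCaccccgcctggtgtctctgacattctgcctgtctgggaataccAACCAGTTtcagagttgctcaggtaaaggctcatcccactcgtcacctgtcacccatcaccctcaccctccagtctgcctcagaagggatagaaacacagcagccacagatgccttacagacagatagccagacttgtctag
Ripk4, chr16:97769090-97769289: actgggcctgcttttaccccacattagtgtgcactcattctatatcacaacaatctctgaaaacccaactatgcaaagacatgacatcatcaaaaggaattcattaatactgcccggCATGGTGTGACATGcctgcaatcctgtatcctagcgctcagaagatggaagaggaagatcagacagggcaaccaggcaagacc
Pkp1, chr1:135933894-135934093: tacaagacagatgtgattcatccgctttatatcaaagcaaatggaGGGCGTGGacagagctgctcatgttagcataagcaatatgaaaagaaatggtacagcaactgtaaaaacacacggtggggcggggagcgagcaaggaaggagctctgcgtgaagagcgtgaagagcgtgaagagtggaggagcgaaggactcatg
Tead1, chr7:112670106-112670305: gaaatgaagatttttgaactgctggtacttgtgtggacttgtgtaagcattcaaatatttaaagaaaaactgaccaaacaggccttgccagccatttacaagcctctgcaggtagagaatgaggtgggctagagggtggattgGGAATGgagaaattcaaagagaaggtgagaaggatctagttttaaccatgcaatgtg
Ereg, chr5:91052525-91052724: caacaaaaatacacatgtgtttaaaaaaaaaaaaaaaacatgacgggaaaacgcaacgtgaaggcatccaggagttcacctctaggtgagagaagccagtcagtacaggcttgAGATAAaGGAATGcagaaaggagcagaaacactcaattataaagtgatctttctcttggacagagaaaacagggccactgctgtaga
Yap1, chr9:8006180-8006379: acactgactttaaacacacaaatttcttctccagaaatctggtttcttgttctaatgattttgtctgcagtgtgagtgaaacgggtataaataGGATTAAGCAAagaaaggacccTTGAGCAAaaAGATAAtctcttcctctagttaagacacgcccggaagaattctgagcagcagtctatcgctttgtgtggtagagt
The Krt5 window, 9226 bp from the start of this basal keratin gene, held a KLF match at position 8 and a GRHL match at position 59, counted from 1 at the 5′ end. The Ripk4 window carried the p53-family motif, a pair of CATG cores 6 bases apart, at position 118, and the Tead1 window, 9114 bp from the gene of a TEAD factor, held a TEAD match at position 144. The Ereg window had a GATA match at position 114 and a TEAD match at position 121, separated by a single base. The Pkp1 window held a KLF match and, in lower case, an AP-1 match, and the Yap1 window held PITX, C/EBP and GATA matches. A match shows only that these letters are there.

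The depth in reads is unknown because the lists carry positions alone. Epithelium libraries held between 270003 and 349322 peaks and mesenchyme libraries between 295141 and 341741, of which 119304, 160357 and 132179 were intergenic in epithelium libraries 1, 2 and 3, and 127173, 151244 and 139071 in mesenchyme libraries 1, 2 and 3. Trp63 and Col17a1, which mark basal cells, had a peak over a start in all 3 epithelium libraries and in no mesenchyme library, and 20 of the 21 basal marker genes had such a peak in every epithelium library, against 17 of 21 in every mesenchyme library. Start-site peaks were thus found at most markers of either tissue in both. For endothelial markers the counts were 9 of 16 in epithelium and 12 of 16 in mesenchyme, and for immune markers 3 of 16 and 4 of 16. The part of other cell types in the results below was not tested.

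The peaks of the members had a median width of 410 bp in epithelium library 1, 464 bp in library 2 and 364 bp in library 3. All intergenic peaks of these libraries had medians of 312, 319 and 315 bp. The merged members had a median of 594 bp, against 534 bp for mesenchyme-only intergenic regions and 531 bp for the intergenic regions of at least 2 libraries. The 22059 intergenic regions open in all 6 libraries were much wider, with a median of 1241 bp. Merged width rose with the number of libraries: without a mesenchyme peak, it was 247 bp for 1 epithelium library, 397 bp for 2 and 594 bp for 3. In 5119 members, or 93.9%, each library contributed exactly 1 peak, and in 4839, or 88.8%, the peaks of all 3 libraries shared a common stretch, with a median of 268 bp. Library 2, which had the longest list, gave the widest peak in 49.4% of members. Just outside the rule lay 4721 intergenic regions with peaks in all 3 epithelium libraries and 1 mesenchyme library, with a median width of 687 bp, and 14170 with peaks in 2 epithelium libraries and no mesenchyme library, with a median of 397 bp. The nearest mesenchyme peak was a median of 1752 bp away from a member, and 506 members, or 9.28%, had one within 200 bp.

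Members lay far from genes. The nearest protein-coding start was a median of 80461 bp away, with quartiles of 25027 and 220371 bp, against a median of 48884 bp for mesenchyme-only intergenic regions, 33087 bp for intergenic regions open in all 6 libraries and 43654 bp for the intergenic regions of at least 2 libraries. Of the members 314, or 5.76% (95% Wilson interval 5.17 to 6.41), were within 5 kb of a start, and 3013, or 55.3% (54 to 56.6), within 100 kb. The corresponding shares of the mesenchyme-only intergenic regions were 9.01% (8.12 to 10) and 66.9% (65.3 to 68.4). At the other end 425 members, or 7.8%, were more than 500 kb from any start and the most remote was 2262468 bp away, while 4.58% of mesenchyme-only intergenic regions were beyond 500 kb. Epithelium-only regions within genes, 4652 in all, had a median distance of 30406 bp. The intervals cover counting error only, and regions are not replicates.

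**Figure D1:**
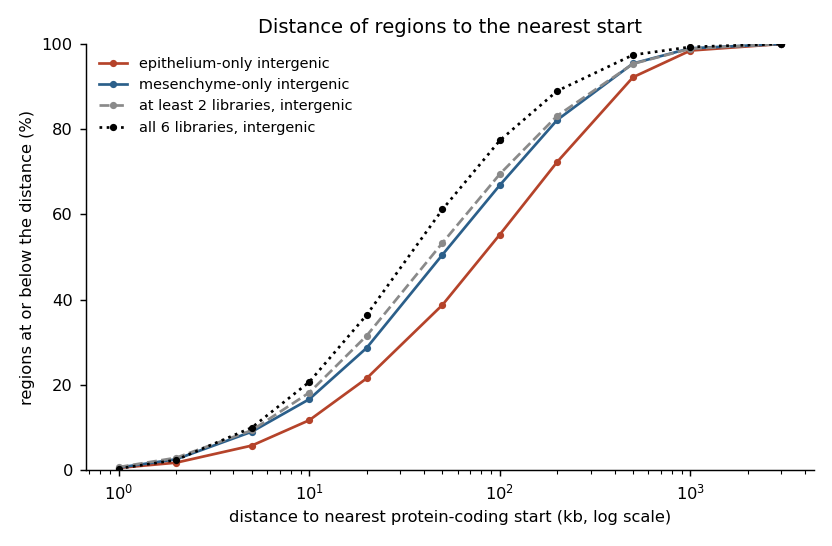
Share of regions (%) at or below each distance from the nearest protein-coding start (kb, log scale) for epithelium-only, mesenchyme-only, at-least-2-library and all-6-library intergenic regions. The epithelium-only curve runs lowest, with 55.3% of regions within 100 kb against 66.9% for mesenchyme-only regions.

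The difference was then sought in the libraries themselves. For every library the intergenic peaks were taken whose merged region held no peak of the other tissue, called tissue-private peaks here: 39525, 59813 and 45098 in epithelium libraries 1, 2 and 3, and 41463, 55203 and 45027 in mesenchyme libraries 1, 2 and 3. The share farther than 100 kb from any start was 41.1%, 39.1% and 39% in epithelium libraries 1, 2 and 3, against 35.5%, 35.3% and 34.9% in the mesenchyme libraries. The groups did not overlap, and the difference of 4.5 percentage points was larger than the spread between libraries (SD 1.19 in epithelium and 0.343 in mesenchyme, n = 3 each). The exact permutation test gave p = 0.1, two-sided, which is the smallest p that 3 against 3 libraries allow. With the epithelium-only and mesenchyme-only regions left out of the private peaks, the difference was 3.66 points, again without overlap at the smallest p possible.

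How often such a call returns in a library that had no part in it was measured by choosing regions on 2 epithelium and 2 mesenchyme libraries and looking at the other 2. Over the 9 possible choices, which held 10966 to 15018 intergenic regions, 48.9% to 64.6% of the regions had a peak in the left-out epithelium library and 19.5% to 26.1% in the left-out mesenchyme library. Each exact binomial interval was narrower than 2 percentage points, and the epithelium share exceeded the mesenchyme share in every choice, by 1.87 to 3.15 times. The highest shares came with epithelium library 2 left out (64.2% to 64.6%), the library with the most peaks, and those for epithelium libraries 1 and 3 lay between 48.9% and 50.4%. For regions chosen in the opposite way, as mesenchyme-only, the left-out mesenchyme library had a peak in 42.2% to 50.4% and the left-out epithelium library in 23.3% to 37.8%. The 9 choices share libraries, so they are not independent of each other.

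**Figure D2:**
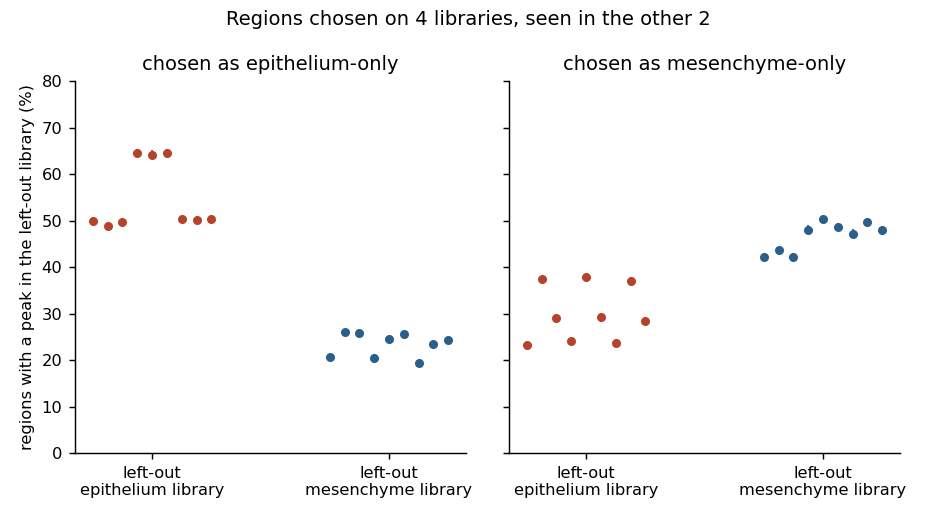
Share (%) of regions chosen as epithelium-only (left) or mesenchyme-only (right) on 4 libraries that had a peak in the left-out epithelium or mesenchyme library, 1 point for each of 9 choices with exact 95% binomial intervals. Regions chosen as epithelium-only were found in 48.9% to 64.6% in the left-out epithelium library, against 19.5% to 26.1% in the left-out mesenchyme library.

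To ask which genes flank the members, each was assigned to the nearest protein-coding start on either side within 100 kb. This reached 3013 members, which were 2.71% of the 111273 intergenic regions so assigned in at least 2 libraries, and left 2438 members with no start in reach. The same share for mesenchyme-only regions was 2.15%. At least 1 member was assigned to 3181 protein-coding genes, 18.4% of the 17280 with any intergenic region of at least 2 libraries assigned, most of them with a single member (2375 genes), 575 with 2 and 231 with 3 or more. For a gene list, the number of members is set below against the intergenic regions of at least 2 libraries assigned to its genes and read against 2.71%. The lists were chosen with earlier results of these libraries known, and their shares are descriptions.

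Among the lists, genes of the basal layer and its basement membrane had the highest share of members among their intergenic regions. Of 21 such genes 9 had at least 1 member, a smaller part than the 13 of 26 epithelial transcription factor genes, and 17 of the 175 intergenic regions at these genes were members, or 9.71% (95% Wilson interval 6.15 to 15), while 2 were mesenchyme-only. Frem2, whose product with that of Fras1 forms the Fraser complex that anchors epithelium to the tissue below, accounted for 7 of the 17. Without it the other 8 genes had 1 or 2 members each. Its members lay 8557 to 93157 bp upstream of the start, and no mesenchyme-only region was assigned to it. In epithelium libraries 1, 2 and 3 there were 12, 16 and 15 intergenic peaks at Frem2, against 5, 9 and 8 in mesenchyme libraries 1, 2 and 3. By the rule each member puts at least 1 peak in every epithelium library and none in a mesenchyme library. Peak numbers at genes and intervals with members are for that reason a description, and nothing is read from their difference between tissues.

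**Figure D3:**
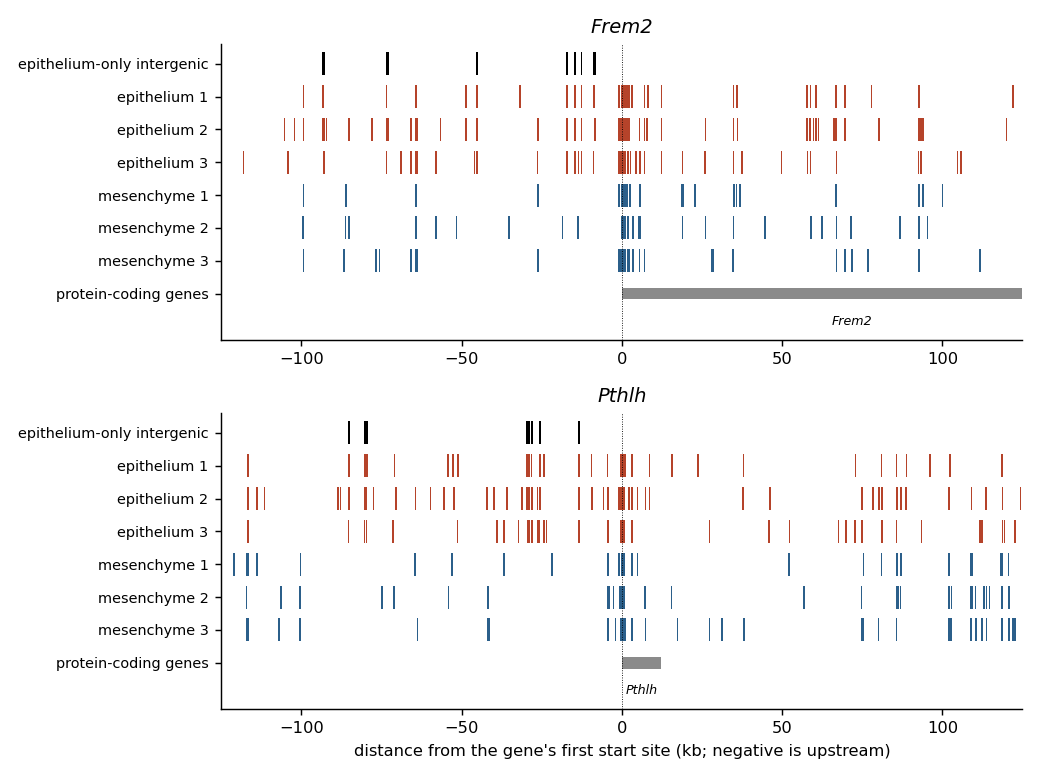
Peaks of each library around the start of Frem2 and Pthlh, by distance from the first start site (kb, negative is upstream), with the epithelium-only intergenic regions in the top row and gene bodies at the bottom (marks narrower than 0.5 kb are drawn at 0.5 kb). The 7 members at Frem2 and the 6 at Pthlh lay upstream, where the epithelium rows hold peaks that the mesenchyme rows lack.

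Among the other basal genes, Krt5, the basal keratin that pairs with keratin 14, had 1 member, whose peak was at the smallest width found in the lists in epithelium library 1 and was 417 and 359 bp wide in libraries 2 and 3. Trp63, which encodes p63, had 1 member 59221 bp from a start. Hemidesmosome genes were represented by Itga6 and Col17a1 with 2 members each, and the desmosomal cadherins Dsc3 and Dsg3, of the deep epidermal layers, had 1 each, as did Fras1. No member was assigned to Krt14, Krt15, Itgb4, Lama3, Lamb3 or Col7a1.

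Periderm and suprabasal genes, in contrast, had a share near that of all genes. Of 21 genes 6 had a member, and members were 7 of 272 regions, or 2.57% (1.25 to 5.22). Ripk4, a kinase needed for periderm and for keratinocyte differentiation, had 3, the nearest 5373 bp away with peaks of 430, 435 and 237 bp in epithelium libraries 1, 2 and 3. At Ripk4 there were 34, 37 and 36 intergenic peaks in the epithelium libraries, against 16, 22 and 11 in the mesenchyme libraries. A single member lay between Krt16 (4234 bp) and Krt17 (7893 bp), stress and appendage keratins. Krt18, a keratin of simple epithelia and periderm, and Arhgap29, a GTPase regulator, had 1 each. Grhl3, Krt6a, Krt4 and Sfn had none within the rule.

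Junction and splicing genes had members at 8 of 30 genes, 12 of 347 regions or 3.46% (1.99 to 5.95). Cldn1, a tight junction claudin of the skin barrier, had 3 between 42582 and 89915 bp from its start, and its intergenic peaks numbered 11, 16 and 15 in epithelium libraries 1, 2 and 3, against 10, 5 and 7 in the mesenchyme libraries. F11r, which encodes the junctional adhesion molecule JAM-A, and Nectin1 had 2 each. Single members were assigned to Pkp1 and Perp, both needed for desmosomes, to Dsc2, to the protease inhibitor gene Spint1 and to Esrp1, the splicing factor of epithelial isoforms. Cdh1, Epcam and Dsp had none.

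Epithelial transcription factor genes had members at 13 of 26 genes, and 27 of 663 regions, or 4.07% (2.81 to 5.86), were members, against 8 mesenchyme-only regions, or 1.21% (0.613 to 2.36). Sox2, a factor of oral epithelium and of foregut-derived epithelia, had 4 within 100 kb, from 9552 to 76781 bp away. Its intergenic peaks numbered 33, 44 and 38 in epithelium libraries 1, 2 and 3, against 28, 31 and 29 in the mesenchyme libraries. Grhl2, Klf4, Tfap2a and Foxe1 had 3 each. Peak numbers at Grhl2 were 23, 37 and 21 in the epithelium libraries, against 20, 28 and 24 in the mesenchyme libraries, which overlap. Foxe1, a forkhead gene of thyroid and palate, was similar, with 49, 45 and 38 against 33, 44 and 40. Klf5, Tfap2c and Tead1 had 2 members each, and Trp63, Grhl1, Pitx1 and Gata3 had 1 each.

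Signal genes had a share close to that of all genes, with 10 members among 449 regions, or 2.23% (1.21 to 4.05), at 8 of 25 genes. Ereg, an epidermal growth factor receptor ligand, had 2, and its intergenic peaks numbered 6, 7 and 7 in epithelium libraries 1, 2 and 3, against 2, 5 and 0 in the mesenchyme libraries. Pdgfa, a ligand made by epithelium for receptors on mesenchyme, had 2 as well, though its peak numbers were alike, at 49, 54 and 47 in epithelium and 49, 53 and 48 in mesenchyme. The Wnt4 member was the one nearest to a signal gene (3730 bp), with peaks of 297, 559 and 234 bp. No member was assigned to Shh, Tgfb3, Fgf8 or Wnt3. Of 37 orofacial cleft genes, some of which also stand in the other lists, 13 had a member and the share was 2.99% (2.02 to 4.41). These included Nog, a BMP antagonist, with 3, Fgfr1 and the FGF feedback inhibitor Spry2 with 2 each, and Yap1, the Hippo pathway effector, with 1 at 1686 bp and peaks of 866, 843 and 472 bp in epithelium libraries 1, 2 and 3.

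Lists of the other tissue ran the other way. At 33 palate mesenchyme transcription factor genes 11 of 714 regions were members, or 1.54% (0.862 to 2.74), and 29 were mesenchyme-only, or 4.06% (2.84 to 5.77). For 28 matrix and receptor genes the shares were 1.9% (1.04 to 3.47) and 4.57% (3.09 to 6.71). Hand2, a basic helix-loop-helix factor of the branchial arches, nonetheless had 3 members and 2 mesenchyme-only regions, and Foxf2, a palate mesenchyme factor, had 2 members. Thbs2, a matrix glycoprotein gene, had 2 members and 6 mesenchyme-only regions. Has2, a hyaluronan synthase gene, had 2 members and none that was mesenchyme-only, and so did Cdh11.

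Lists of other cell types that a peeled sheet might carry differed. There were 4 among 275 regions at endothelial genes (1.45%), at Tek, Tie1, Cldn5 and Sox17, then 1 among 153 at immune genes (Adgre1), 2 among 157 at muscle genes (Myh8 and Chrna1) and 1 among 172 at osteogenic genes (Mef2c). Nerve and glia genes had 8 of 170, or 4.71% (2.4 to 9.01), an interval that holds the 2.71% of all genes, and a higher share than that of every epithelial list but the basal one. Of these 5 lay at Snap25, a synaptic SNARE gene, and 1 each at Foxd3 and Neurod1. No member lay at Sox10, Tubb3 or Elavl4. Control genes, used in every cell, had 2 of 204, or 0.98% (0.269 to 3.5), at Pgk1 and Ywhaz.

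**Figure D4:**
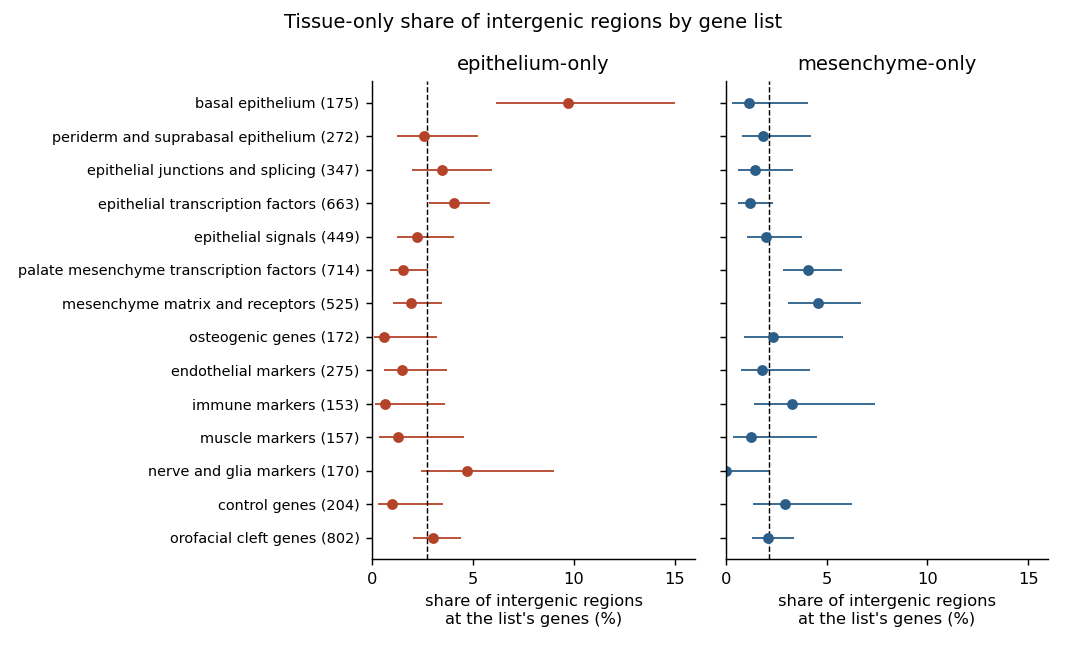
Share (%) of the intergenic regions assigned to a list's genes, their number in brackets, that were epithelium-only (left) and mesenchyme-only (right), with 95% Wilson intervals; dashed lines mark all protein-coding genes, 2.71% and 2.15%. The basal list stands highest on the left at 9.71%, and the matrix and mesenchyme transcription factor lists on the right at 4.57% and 4.06%.

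The genes with the most members within 100 kb were Mtap, with 9 members, Frem2, Calml3 and Apc, with 7 each, and Pthlh, Spry1, Slc12a2 and Ankrd50, with 6 each. Mtap, an enzyme gene of methionine salvage, had 26, 28 and 22 intergenic peaks in epithelium libraries 1, 2 and 3, against 8, 13 and 9 in mesenchyme libraries 1, 2 and 3. Pthlh encodes a secreted hormone through which epithelia signal to neighbouring mesenchyme, and its peaks numbered 22, 32 and 26 in the epithelium libraries, against 12, 11 and 13 in the mesenchyme libraries. At Calml3, which codes for a calmodulin-like protein of epithelial cells, they were 22, 24 and 24 against 10, 12 and 14. Spry1, an inhibitor of receptor tyrosine kinase signalling, had 26, 46 and 36 against 15, 18 and 19. In each of these genes every epithelium library had more peaks than any mesenchyme library, which the choice by number of members favours and which is no separate result. Apc, of the beta-catenin destruction complex, had 17, 24 and 16 against 9, 14 and 8, and Slc12a2, a sodium, potassium and chloride cotransporter gene, 18, 28 and 27 against 11, 19 and 9. At Slc12a2, where mesenchyme library 2 exceeded epithelium library 1, the libraries therefore overlapped, as they did at Ankrd50 with 15, 24 and 24 against 15, 7 and 17. The next rank was a tie of 14 genes with 5 members, among them Otx2, Lmo4, Ptpn13, Erbin, Pcdh18 and Snap25. Neighbouring genes can share members: Spry1 and Gm5148 are neighbours on chromosome 3, as are Pigm and Slamf9 on chromosome 1. Ankrd50 follows Gm5148, but the interval between them is 725 kb, too long for a member to be assigned to both.

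Because 2438 members had no start within 100 kb, the intervals between adjacent protein-coding gene bodies were counted too, a view added after the values were seen. Members fell in 2629 of 19057 such intervals, and 2841 members, or 52.1%, lay in the 559 intervals that held 3 or more, which had a median length of 545 kb. Of these, 196 held no mesenchyme-only region. Such intervals were picked by their own number of members, and the share of other intergenic regions in them was not counted. Whether members cluster more than other intergenic regions was therefore not tested. The interval with the most members was the 1102 kb between Sox2 and Atp11b, with 26 members, no mesenchyme-only region and 165 intergenic regions of at least 2 libraries. It held 145, 164 and 159 intergenic peaks in epithelium libraries 1, 2 and 3, against 89, 111 and 100 in mesenchyme libraries 1, 2 and 3. Next came Epha7 to Map3k7 with 21 members in 2997 kb, and Pkn2 to Lmo4 with 20 in 1307 kb.

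In some intervals the members made up a larger share. Between Klf5 and Klf12, a gene for a factor of proliferating epithelium and a relative of it, 12 of 44 regions were members, or 27.3%, and none was mesenchyme-only. Its intergenic peaks numbered 46, 74 and 40 in epithelium libraries 1, 2 and 3, against 16, 11 and 15 in the mesenchyme libraries, and the 12 members are counted in each of the epithelium numbers. The interval before Myc, the proliferation factor gene, had 12 of 52 and that between Itga1 and Isl1, a LIM homeobox gene, 11 of 50, both with no mesenchyme-only region. Fgf9, for a growth factor made by palatal epithelium, was followed by an interval with 14 members of 100 regions and no mesenchyme-only region, of which 1 lay within 100 kb of Fgf9. The highest shares among intervals with 5 or more members were 39.3% between Egfl6 and Tmsb4x on chromosome X (11 of 28), 37.5% between Rassf9 and Alx1 (9 of 24), 36.8% next to Frem2 (7 of 19) and 34.4% between Ifne and Mtap (11 of 32). An interval names its neighbours and does not say which gene a region acts on.

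One of these gene-poor stretches, Camk1g to Plxna2 on chromosome 1, with 17 members and 3 mesenchyme-only regions, holds Mir205, the gene of a microRNA enriched in stratified epithelia. It was looked up after the values were seen, and its mature strand is shown with the seed, bases 2 to 8, in capitals (RefSeq, GRCm38.p6).
mmu-miR-205-5p: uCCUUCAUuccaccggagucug
Within 100 kb of Mir205 (chr1:193507463-193507530) there were 10 members of 65 intergenic regions in at least 2 libraries and no mesenchyme-only region, and the nearest member was 1862 bp away with peaks of 307, 618 and 237 bp in epithelium libraries 1, 2 and 3. The number of intergenic peaks in that span was 47, 57 and 55 in the epithelium libraries, against 40, 59 and 31 in the mesenchyme libraries, so the tissues overlapped in number. Mir31 had 2 members and 1 mesenchyme-only region. None was found within 100 kb of Mir200b, Mir200c, Mir203 or Mir184. In all 84 members, or 1.54%, lay within 10 kb of an annotated microRNA gene, against 1.87% of mesenchyme-only intergenic regions and 1.83% of the intergenic regions of at least 2 libraries.

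The members with the widest peaks, ranked by the narrowest of their 3 epithelium peaks, were named whatever gene they flanked. At the top stood chr5:12241677-12243935, with peaks of 1819, 2020 and 1569 bp in epithelium libraries 1, 2 and 3, at 140579 bp from Sema3d, a secreted guidance cue. The member chr19:47558579-47561173, between Stn1 and Slk, had peaks of 1652, 2529 and 1384 bp. Others were chr4:81925988-81927740, with 1577, 1753 and 1250 bp, at 578444 bp from Nfib, and chr9:14662016-14663756, with 1223, 1509 and 1741 bp, at 17830 bp from Amotl1, whose product binds YAP. The 10 widest were at least 1220 bp wide in every epithelium library, and their nearest mesenchyme peak was 860 to 17103 bp away.

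Sequence was not used to choose the members, and motifs were counted in the 200 bp at each region's centre, on both strands. TEAD (GGAATG) was found in 1122 members, or 20.6% (95% Wilson interval 19.5 to 21.7), against 11.4% (10.4 to 12.5) of mesenchyme-only intergenic regions and 11.8% of the intergenic regions of at least 2 libraries. GRHL (AACCNGTT) was found in 4.27% (3.77 to 4.84) of members, against 1.59% (1.23 to 2.06) and 1.88%. The p53-family pair was rare, in 69 members or 1.27% (1 to 1.6), against 0.474% (0.296 to 0.759) and 0.729%. The bicoid-type site of PITX factors (GGATTA) was found in 11.4% of members, against 5.58% and 5.76%. The GATA site (AGATAA), of which GATA3 is an epithelial reader, was found in 11.2%, against 6.11% and 6.17%. A SOX site (ACAATGG) was found in 5.19%, against 2.15% and 2.61%. AP-1 (TGANTCA) was found in 13.4%, against 8.65% of mesenchyme-only intergenic regions and 6.64% of the intergenic regions of at least 2 libraries, so both tissue-only sets stood above the last. The E-box of the repressors ZEB and SNAI (CAGGTG) was found in 23.1% of members, against 12.3% and 20.2%, so for this motif it was the mesenchyme-only set that stood off. RUNX (TGTGGTT), a motif of bone and mesenchyme factors, was found in 5.74% of members, against 11.7% of mesenchyme-only intergenic regions. Members thus stood below that set, though above the 4.59% of the intergenic regions of at least 2 libraries. KLF (GGGNGTGG) was found in 7.58%, against 7.84% and 9.96%, and TFAP2 (GCCNNNGGC) in 4.97%, against 7.2% and 7.41%, so these motifs, though ascribed to epithelium, were not more frequent in members.

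Epithelium-only regions within genes were alike in this, since TEAD was found in 20.2% and GRHL in 4.15%. It also followed the number of epithelium libraries that had the peak: among private intergenic regions TEAD was in 12.8% of those in 1 epithelium library, in 14% of those in 2 and in 20.6% of those in 3, and GRHL in 1.29%, 2.1% and 4.27%. For RUNX in mesenchyme-private regions the shares were 5.26%, 6.21% and 11.7%. Among members TEAD was found in 19.7% of those within 10 kb of a start, in 21% at 10 to 100 kb and in 20.4% beyond 100 kb, so its share varied little with distance. A total of 244 members, or 4.48%, held at least 2 of the TP63, GRHL, TFAP2, TEAD and KLF motifs, against 1.98% of mesenchyme-only intergenic regions. The base composition differed between the sets: GC content averaged 46.41% in members, 50.38% in mesenchyme-only and 52.26% in the intergenic regions of at least 2 libraries. The TEAD motif read backwards (GTAAGG), which has the same bases, was found in 6.99% of members (6.34 to 7.7), against 5.94% (5.22 to 6.77) and 6.57%. The part of base composition in the other shares was not tested.

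Over libraries, the same motifs were counted in the tissue-private intergenic peaks. TEAD was found in 14.3%, 14% and 13.4% of the peaks of epithelium libraries 1, 2 and 3, against 11.7%, 11.4% and 11.6% of those of mesenchyme libraries 1, 2 and 3. GRHL was found in 1.97%, 1.69% and 1.64%, against 1.22%, 1.31% and 1.22%, and SOX in 3.97%, 3.92% and 3.71%, against 2.84%, 2.9% and 2.76%. RUNX was lower in epithelium, at 4.93%, 4.71% and 4.53%, against 6.24%, 5.56% and 5.9%. Of 22 motifs 13, or 59.1%, were higher in every epithelium library than in any mesenchyme library (TEAD, GRHL, SOX, the p53-family pair, AP-1, C/EBP, PITX, GATA, the ZEB and SNAI E-box, NFI, MEIS, CTCF and the reversed TEAD control) and 3, or 13.6%, were lower in every one (RUNX, ETS and TFAP2). Each of these reached p = 0.1 in the exact permutation test, two-sided, the smallest possible, and 0.138 after Benjamini-Hochberg adjustment over the 22. The private peaks include the members, and with the epithelium-only and mesenchyme-only regions left out 10 motifs were higher without overlap, while GRHL (a difference of 0.233 percentage points instead of 0.52), C/EBP (0.495 instead of 0.754) and NFI (0.0133 instead of 0.0226) overlapped. For TFAP2 and CTCF the lack of overlap depended on single libraries: the TFAP2 difference, -0.417, was -0.116 without mesenchyme replicate 1 and -0.0208 without mesenchyme replicate 3, and the CTCF difference, 0.138, was 0.0566 without epithelium replicate 1 and 0.0329 without epithelium replicate 2, each with overlap. The reversed TEAD control, which stands for no factor, was among the 13, at 6.69%, 6.51% and 6.62% against 6.4%, 6.42% and 6.43%. Its difference was 0.189 percentage points, against 2.34 for TEAD. KLF, IRF, FOX, the TWIST E-box, the homeobox core and the reversed AP-1 control overlapped between the tissues.

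**Figure D5:**
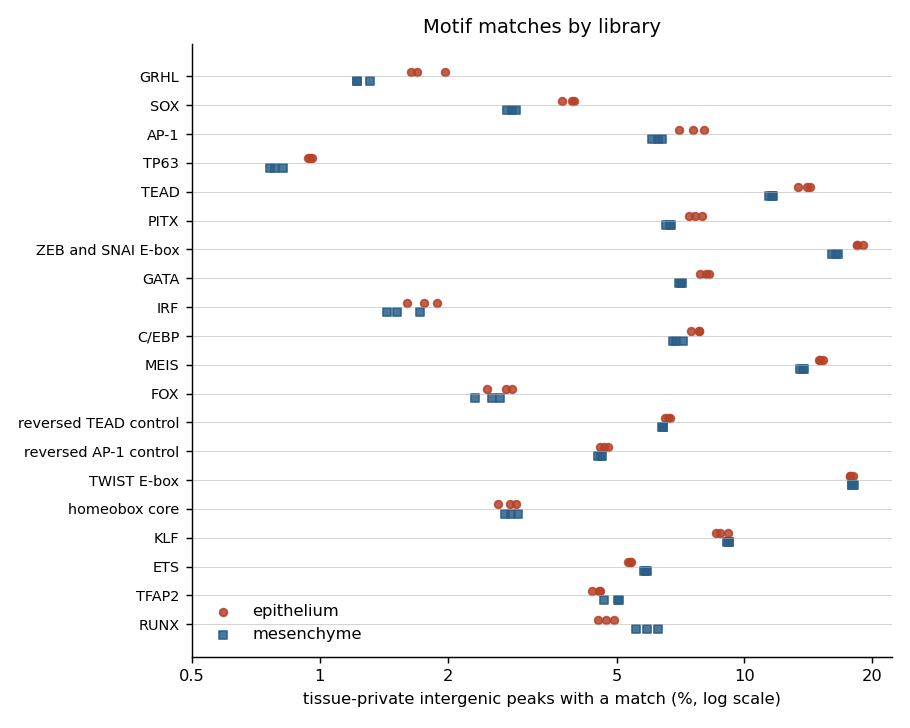
Share (%, log scale) of tissue-private intergenic peaks with a motif match in the central 200 bp, 1 point for each epithelium (circles) and mesenchyme (squares) library, for the motifs found in more than 0.5% of mesenchyme peaks. Motifs are ordered by the ratio of the means; GRHL and SOX stand at the top with epithelium to the right, and RUNX at the bottom with epithelium to the left.

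The members were also poorer in repeats than other intergenic regions. Bases masked as repeats made up 19.5% of the central 200 bp on average, against 23.2% in mesenchyme-only intergenic regions and 33.4% in the intergenic regions of at least 2 libraries. GC content of the private peaks was 48.6%, 48.8% and 49.1% in epithelium libraries 1, 2 and 3, against 49.9%, 49.9% and 50.2% in the mesenchyme libraries (exact permutation p = 0.1, two-sided, the smallest possible). Long noncoding RNA genes, which the rule did not consider, contained the midpoint of 765 members, or 14% (13.1 to 15), against 13.1% (12 to 14.2) of mesenchyme-only intergenic regions. A long noncoding RNA start lay in 75 members, or 1.38% (1.1 to 1.72), against 0.642% (0.428 to 0.961) of mesenchyme-only intergenic regions and 1.47% (1.41 to 1.53) of the intergenic regions of at least 2 libraries, so members were near the share of intergenic regions at large, and the mesenchyme-only set was lower. One of these was the start of Wincr1, between Ifne and Mtap.

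By chromosome, members were most frequent on chromosome 3, which held 478, or 8.77%, against 5.78% of mesenchyme-only and 5.07% of the intergenic regions of at least 2 libraries. Both the Sox2 and the Frem2 neighbourhoods are on it. Of the intergenic regions on chromosome X 4.82% were members and 0.95% mesenchyme-only, while on chromosome 11 the shares were 2.06% and 2.62%. In private peaks 4 of 21 chromosomes, or 19%, had a higher share in every epithelium library than in any mesenchyme library (1, 3, 12 and X) and another 4, or 19%, a lower one (2, 9, 11 and 17), with an adjusted p of 0.263 in the exact permutation test for each. Chromosome 3 held 6.08%, 6.4% and 6.37% of the private peaks of epithelium libraries 1, 2 and 3, against 5.8%, 5.43% and 6.01% in the mesenchyme libraries, and chromosome X 5.01%, 4.24% and 4.7%, against 1.89%, 1.85% and 2.25%. The labels do not give the sex of the embryos.

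Across gene families the share of members was near that of all genes in some and below it in others. Keratin genes had 9 members among 286 regions, or 3.15% (1.66 to 5.87), and no mesenchyme-only region. Classical and desmosomal cadherins had 8 members, or 3.16% (1.61 to 6.11), and 1 mesenchyme-only region among 253. Forkhead genes had 22 members, or 2.97% (1.97 to 4.46), and 8 mesenchyme-only regions among 740. Claudins had 10 members, or 4.02% (2.2 to 7.23), and 9 mesenchyme-only regions among 249. The intervals of these families hold the 2.71% of all genes. Mesenchyme-only regions outnumbered members at 35 homeobox and paired-box genes, among them the Irx, Lhx, Dlx and Pax genes, with 10 members and 22 mesenchyme-only regions among 857. The same held for Wnt ligand genes, with 4 and 10 among 408. Their member shares, 1.17% (0.635 to 2.13) and 0.98% (0.382 to 2.49), had intervals below the share of all genes. At 39 Hox genes there was no member among 178 regions, with a Wilson interval of 0 to 2.11%, and there were 5 mesenchyme-only regions. Zinc finger genes named Zfp had 43 members among 2799 regions, or 1.54% (1.14 to 2.06), against the 2.71% of all genes. Olfactory receptor genes had 27 among 1351, or 2% (1.38 to 2.89), an interval that holds the share of all genes.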

How the data were processed

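Per the labels and the study's methods, the authors used Trimmomatic 0.38 for trimming, Bowtie2 for alignment to mm10 and SAMtools to drop duplicates, kept fragments under 100 bp and called peaks in each library with MACS2 2.1.1, with no shifting model and no local background (deepTools 2.0 served to compare replicates). A cutoff for calling a peak is not stated in what was read here. The deposited lists hold a chromosome, a start and an end, with no score, so a missing peak can reflect depth. The study itself compared read counts. Here the lists were merged, placed by GENCODE M21 on GRCm38.p6, the assembly of mm10, and analysed in Python 3.11.15 (numpy 2.4.6, pandas 2.3.3, scipy 1.17.1), after the code had been tested on simulated data.

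The members, the 14 gene lists, the 16 families and the 22 motifs were chosen with earlier results of these data known. Named regions are the 10 with the largest narrowest peak and, per list, up to 3 nearest to a list gene; named genes are the 10 with the most members (ties kept) and list genes with at least 2, or 1 where none had 2. Other genes of a list are named to account for it, and some items are not reported here. C/EBP is TTGCNNAA, ETS AGGAAGT, FOX TGTTTAC, MEIS TGACAG, the TWIST E-box CATCTG, the homeobox core TAATTA and the reversed AP-1 control ACTNAGT; IRF is a pair of GAAA cores 2 bases apart; NFI is TTGGC and GCCAA 5 bases apart; CTCF was searched by its consensus. Matches of different motifs may overlap, and each was counted for its own motif. Between tissues, library shares were compared by exact permutation tests, two-sided, with Benjamini-Hochberg adjustment.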

Additional observations from a re-analysis of the deposited data

How the results depend on the processing

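The number of epithelium-only intergenic regions, 5451, lay between 4583 and 5462 under another merging overlap, another definition of start or gene, lists of equal length (270003 peaks) or autosomes alone. It was 3448 when no mesenchyme peak was allowed within 1 kb and 10172 when 1 mesenchyme library was allowed to have a peak. The mesenchyme-only count, 3583, was put through the same alternatives after the data had been seen and ran between 1736 and 9720. Leaving out a library loosens the rule by construction and gave 6818 to 11256 regions. For the same reason the share at the 5 epithelial lists, 4.02% against 2.71% at all genes, was 5.42% to 7.91% with a library left out; without epithelium replicate 1 it was 7.91% against 6.51% at all genes. It was 4.37% within 50 kb and 4.49% with the nearest start only. The basal list, at 9.71%, was at 16.1% without epithelium replicate 3, when all genes were at 6.53%. The differences in GC content and in the share beyond 100 kb kept their direction under every alternative run. Of the 22 motifs 19 kept their direction throughout, but the lack of overlap was less stable: 10 motifs instead of 13 were higher in every epithelium library with the epithelium-only and mesenchyme-only regions left out, and 12 to 17 with a library left out. Overlap also appeared for NFI with equal lists (0.0189 points), for CTCF (0.0924) and TFAP2 (-0.241) over all intergenic peaks and for the reversed TEAD control in the central 400 bp (0.287). KLF, which overlapped, was lower without overlap when any one epithelium library was left out (-0.695 to -0.296). TFAP2 ran from -0.8 to -0.0208 with a library left out. The TWIST E-box turned with the epithelium-only and mesenchyme-only regions left out (0.0314 points). The homeobox core turned over all intergenic peaks (0.0452) and in the central 400 bp (0.18), and ran between -0.19 and 0.187 with a library left out. The reversed AP-1 control turned with equal lists (-0.00815) and ran between -0.00502 and 0.174 with a library left out. All 3 overlapped between tissues to begin with. Without epithelium replicate 3, however, the reversed AP-1 control (0.174) and the reversed TEAD control (0.154) were both higher in every epithelium library. The lack of overlap was thus also reached by motifs that stand for no factor. Chromosomes with a higher share in every epithelium library numbered 2 instead of 4 with the epithelium-only and mesenchyme-only regions left out. Deviations of the motif shares correlated at -0.16, -0.22 and 0.19 between the 3 pairs of libraries with the same replicate number. Between libraries with different numbers the correlations ran from -0.19 to 0.33. With 3 libraries of each tissue these values cannot show whether libraries were paired. With a replicate block the smallest possible p is 0.25, and 14 motifs and 7 chromosomes were higher in epithelium in every pair. The differences were unchanged at 4.5 points for distance and -1.17 for GC content.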
